A study of Mus musculus with 15 samples.

Results

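The genes of chromosomes 5 and 11 were examined in DKO241, 1 of 15 mouse T cell leukemia lines whose RNA was sequenced. Members are the genes that the deposited table places on either chromosome and whose mean over the lines is 5 CPM or more, CPM being reads scaled to the reads of the library. They number 1458 of the 12545 genes listed, with 616 of the 786 genes of chromosome 5 and 842 of the 1081 genes of chromosome 11. The pair of chromosomes was chosen by measured values, because their genes had been seen to stand apart in DKO241, so the shift itself is only described. An outlier criterion was applied to it among the results flagged for a closer look, where its outcome carries no evidence for the shift. The genes nearest the minimum were Idua at 5.33 CPM and Chrna9 at 4.98 CPM on chromosome 5, and Rhbdf2 at 5.02 CPM and 2810001G20Rik at 4.96 CPM on chromosome 11.

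All lines were derived from thymic leukemias of FVB/NJ mice, were grown in culture without treatment and lack E2A, so every line carries the E2a-/- genotype. The 8 DKO lines are in addition LefF/F LckCre+, which means that a Cre recombinase driven by the Lck promoter removes the floxed DNA binding domain of LEF1 in T cells. The 7 E2a-/- lines, whose names begin with SKO, are labelled E2a-/- with no further allele. Each line stands for 1 leukemia and 1 library, so DKO241 has no replicate of its own, and its values are set beside the lowest, the median and the highest of the 14 other lines. The labels name no batch.

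Cells that gain or lose a whole chromosome carry a changed dose of many neighboring genes together, and for most of them the RNA level follows the dose. Some genes are held back by feedback or by limiting regulators, and others are changed through regulators encoded elsewhere. Gains of whole chromosomes are common in mouse T cell leukemias. A gene present in 3 copies where other cells have 2 would give a ratio of 3:2, which is 0.58 on the log2 scale, and this ratio is used below as a yardstick. The table holds RNA levels alone, and the number of copies was not measured in it.

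Before the chromosomes were described, the lines were checked against their labels. Lef1 RNA was at 121 CPM in DKO241 and between 103 and 210 CPM in the other DKO lines, against 668 to 1558 CPM in 6 of the E2a-/- lines. The library labelled SKO132 goes against this order, with Lef1 at 59.0 CPM, below every DKO line, although it is labelled E2a-/-. Tcf3, the gene that encodes E2A, had 177 CPM in DKO241 and 117 to 243 CPM in the other lines, so reads from the mutant gene remained in each. T cell markers were present in DKO241 at the level of the other lines, with 13 of 13 listed in the table and a summed 5068 CPM, where the other lines had 2292 to 5738 CPM with a median of 5000 CPM. Thy1, a T cell surface glycoprotein, was the most abundant at 1212 CPM.

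Markers of other cells were few. None of 5 B cell markers is listed in the table. Of 5 myeloid markers 2 are listed, Itgam and Lyz2, with a sum of 7.75 CPM in DKO241 and 5.48 to 13.98 CPM in the other lines. Of 4 erythroid markers only Gata1 is listed, at 1.91 CPM. Of 4 stroma markers, Col1a2 and Pdgfrb are listed, and Col1a2, a collagen chain, stood at 673 CPM in DKO241 and from 0 to 947 CPM in the other lines. Pdgfrb was lowest of all lines in DKO241, at 1.91 CPM, and none of these markers lies at 0 there. The part of Col1a2-expressing cells in the levels below was not tested.

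To compare lines gene by gene, the median of a gene over the 15 lines was subtracted from its log2(CPM + 1) in each line, and this deviation is the quantity used throughout. In DKO241 the median deviation of the 616 genes of chromosome 5 was 0.41, a level of 1.33 times the usual one. In the 14 other lines the same median lay between -0.10 in DKO170.2 and 0.00, with a mean of -0.02 ± 0.03 (SD, n = 14). The 842 genes of chromosome 11 had a median of 0.47 in DKO241, or 1.38 times. In the other lines it lay between -0.08 in SKO163.5 and 0.10 in DKO548, with a mean of -0.01 ± 0.04 (SD, n = 14). On both chromosomes DKO241 was above every other line and did not overlap with the other DKO lines or with the E2a-/- lines. The libraries are of bulk RNA, in which more RNA per cell and more cells with the higher level cannot be told apart.

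The remaining chromosomes of DKO241 did not share this level. Its 7916 genes on the 17 other autosomes had a median deviation of -0.01, and the autosomes taken singly ran from -0.10 for chromosome 6 to 0.00. Shifts of similar size were present elsewhere in the series, since the highest median of any autosome in another line was 0.52 for chromosome 14 in SKO132. Neither chromosome 5 nor chromosome 11 had a comparable value in any line but DKO241.

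**Figure D1:**
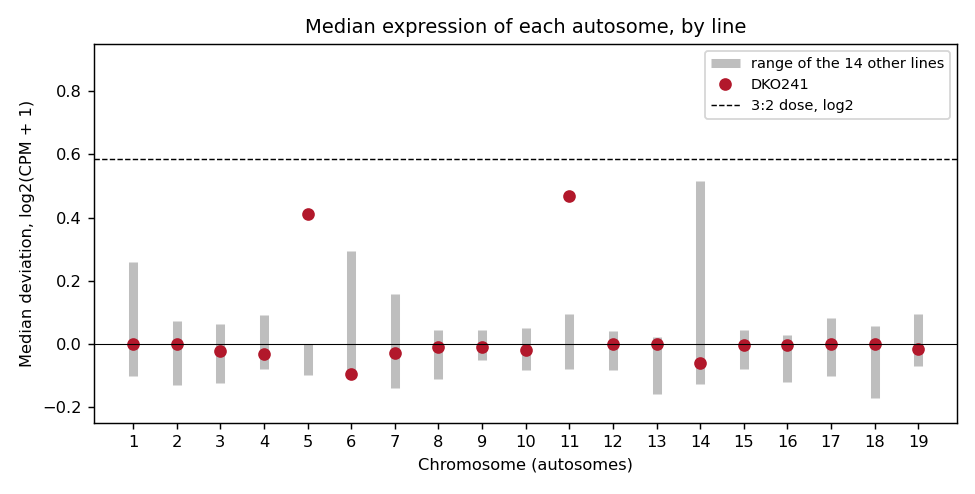
Median deviation of the genes of each autosome, in log2(CPM + 1) units; red points are DKO241, gray bars run from the lowest to the highest of the 14 other lines, and the dashed line is a 3:2 dose. DKO241 lies at 0.41 on chromosome 5 and 0.47 on chromosome 11, above the bars, and between -0.10 and 0.00 on the other autosomes.

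Counted as reads, chromosome 5 took 7.85% of all reads on listed genes in DKO241 (95% Wilson interval 7.83% to 7.86%), and 5.63% to 6.10% in the other lines, with a median of 6.01%. Chromosome 11 took 13.11% (interval 13.09% to 13.12%), against 9.29% to 10.5% and a median of 9.55%. These intervals cover counting error only, which is small at 18817468 reads in DKO241. Since CPM is a share of the reads of a line, more reads on some chromosomes leave fewer for the rest, and the 17 other autosomes took 72.9% of the reads in DKO241 and 76.5% to 78.7% in the other lines. Per 100 reads on those autosomes, DKO241 had 10.8 reads on chromosome 5, which is 1.38 times the median of the other lines. It had 17.99 reads on chromosome 11, which is 1.46 times their median. The ratio for chromosome 11 was therefore near 3:2 on this scale and the ratio for chromosome 5 below it.

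The shift ran along the whole length of both chromosomes. Members were sorted into 10 Mb bins by the start the table gives them. In DKO241 the 15 bins of chromosome 5 that hold members, with 8 to 90 genes each, had medians between 0.32 and 0.50. The 13 bins of chromosome 11, with 13 to 116 genes each, had medians between 0.32 and 0.69. All 15 and all 13 bins were above each of the 14 other lines, the smallest gap being 0.19 on chromosome 5 and 0.25 on chromosome 11, both in the bin from 40 to 50 Mb. Medians of the bins differed among themselves by an SD of 0.05 on chromosome 5 and 0.09 on chromosome 11. No member starts between 10 and 20 Mb on chromosome 5.

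The ends were raised like the middle. The first 10 members of chromosome 5, from Cdk6 to Cldn12, had a median of 0.38 in DKO241, and the last 10, from Hmgb1 to Rfc3, had a median of 0.35. On chromosome 11 the first 10, from Pisd-ps1 to Smtn, had a median of 0.37 and the last 10, from Cd7 to B3gntl1, a median of 0.47. The highest of the other lines in these end groups was 0.23, at the start of chromosome 11. Among the other lines the lowest bin was in DKO170.2, at -0.65 in the last bin of chromosome 5, which holds 8 genes.

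Finer windows held a few short stretches with little shift. Of 606 windows of 11 consecutive members on chromosome 5 and 832 on chromosome 11, 0 had a median at or below 0, while 9 and 3 were under 0.2. The lowest window of chromosome 5, from Bloc1s4 to Tmem128, had a median of 0.08, and the lowest of chromosome 11, from Emid1 to Polm, a median of 0.01. Of the 11 members of these windows 3 and 5 were at or below their own median. This second window holds Emid1, an extracellular matrix gene, at 0 CPM in DKO241, where 3 reads would give 0.159 CPM, beside Kremen1, a Wnt pathway receptor, at 292 CPM and a deviation of 0.65. The longest run of neighbors at or below their own medians on chromosome 5 was 3 genes, Fbxw8, 2410131K14Rik and Med13l. These windows and this run were picked as the extremes after their values were seen.

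**Figure D2:**
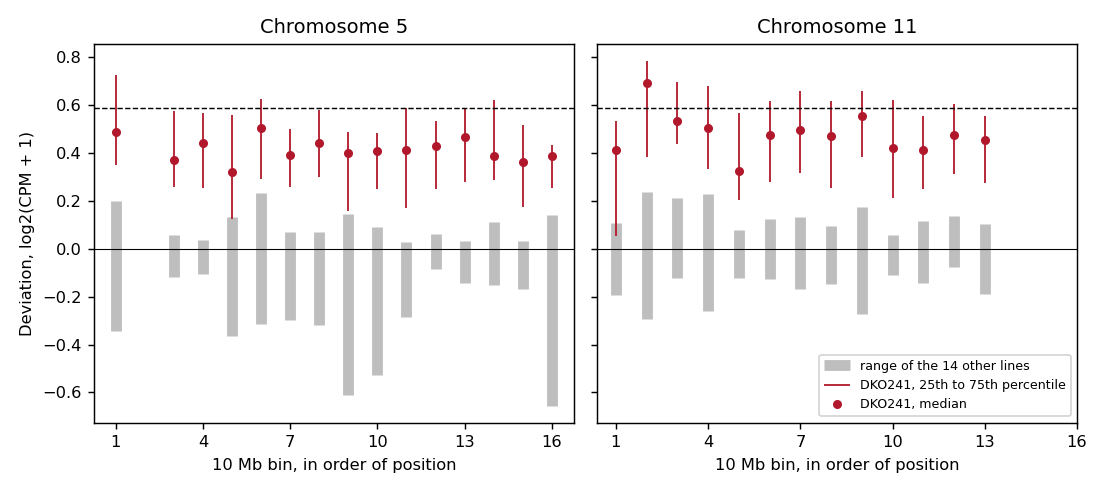
Deviation in consecutive 10 Mb bins of chromosomes 5 and 11, in log2(CPM + 1) units; red points and lines are the median and the 25th to 75th percentile of the genes of a bin in DKO241, gray bars the range of bin medians in the 14 other lines, and the dashed line a 3:2 dose. The red points lie between 0.32 and 0.69 and above the gray bar in every bin.

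Gene by gene, most members followed the shift. In DKO241 72 of 616 genes of chromosome 5 (11.7%) and 98 of 842 of chromosome 11 (11.6%) were at or below their own median, against 60.7% of the genes of the other autosomes and 53.5% of all 9707 genes at or above the minimum mean. Between the median and a 3:2 dose were 64.8% of the genes of chromosome 5 and 58.0% of chromosome 11. Above a 3:2 dose were 145 genes of chromosome 5 (23.5%) and 256 of chromosome 11 (30.4%), against 7.70% of all genes. At 2:1 or more were 24 (3.90%) and 35 (4.16%), against 2.29% of all genes. These percentages repeat the values on which the chromosomes were chosen and carry no further evidence for them.

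DKO241 was the highest of the 15 lines for 283 genes of chromosome 5 (45.9%) and 405 of chromosome 11 (48.1%), compared with 9.32% of all genes and 2.61% of the genes of the other autosomes. Together these 688 genes made up 76.0% of the 905 genes that were highest in DKO241. The next line in this respect was DKO170.2, which was highest for 14.1% and 11.8% of the members but also for 17.5% of the genes of the other autosomes. DKO241 was the lowest line for only 6 of the 1458 members (0.41%), against 5.12% of the genes of the other autosomes.

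The spread of the genes around the shifted center, set beside that of the other autosomes, depended on the measure. A robust SD, scaled from the median absolute deviation, was 0.25 for chromosome 5 and 0.27 for chromosome 11 in DKO241, and 0.21 for its other autosomes. The 5th and 95th percentiles were -0.25 and 0.89 on chromosome 5 and -0.29 and 0.92 on chromosome 11, and lay further apart on the other autosomes, at -0.93 and 0.52. By biotype, the 1407 protein-coding members had a median of 0.45, 22 long noncoding and antisense members 0.30, and 9 pseudogenes 0.27. The 20 members that were not found in the annotation were not placed in a biotype.

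**Figure D3:**
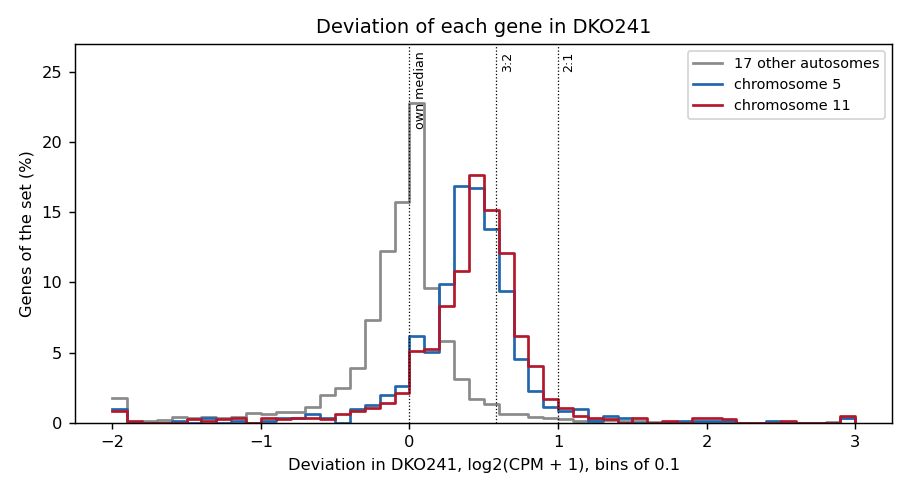
Share of genes (%) by their deviation in DKO241 in steps of 0.1 log2(CPM + 1), for chromosome 5, chromosome 11 and the 17 other autosomes; values beyond the axis are in the first or last step, and dotted lines mark the own median, 3:2 and 2:1. The curves of chromosomes 5 and 11 center at 0.41 and 0.47 and the curve of the other autosomes at -0.01.

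Members that varied little in the other lines were least often at or below their median in DKO241. Members were split into 4 groups of equal size by the SD of log2(CPM + 1) over the 14 lines other than DKO241, a measure that DKO241 does not enter. In the group with the smallest SD, up to 0.22, 3 of 365 genes (0.82%) were at or below their median in DKO241 and 0 were at 2:1 or more. In the group with the largest SD, from 0.49, 114 of 365 genes (31.2%) were at or below it and 48 were at 2:1 or more. The groups between them had 6.59% and 7.97% at or below the median. From the smallest SD to the largest, the median deviations of the groups were 0.47, 0.46, 0.45 and 0.31. Under a common shift, genes that vary more would cross either limit more often. The shares therefore do not measure how far the genes of a group followed the shift. Split by level in the same way, the group with the lowest mean CPM had a median deviation of 0.38 and the other groups 0.46. From the lowest level to the highest, 23.0%, 10.4%, 8.24% and 4.93% were at or below their median and 37, 13, 3 and 6 genes were at 2:1 or more. On a log2(CPM + 1) scale the differences of low genes are understated. Split by summed exon length the groups had medians of 0.42 to 0.46.

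Among the 679 members with an SD of at most 0.3 over the other lines, called steady here, 24 (3.53%) were at or below their median in DKO241. With a limit of 0.2 it was 2 of 294 members, and with 0.5 it was 58 of 1100. The steady genes had a median of 0.43 on chromosome 5 (307 genes) and 0.50 on chromosome 11 (372 genes). Of them 66.1% and 78.8% were highest in DKO241. Among the 3406 steady genes of the other autosomes 3.26% were highest in DKO241, 60.2% were at or below their median and 0 were at 2:1 or more.

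The steadiest genes were chosen for a small spread in the other lines, beside which a shift is easily seen. Letm1, which encodes a mitochondrial inner membrane protein of ion exchange, lies on chromosome 5 from 34082322 to 34125466 in the coordinates of the table. These coordinates mostly differ from GRCm38, and their assembly was not identified. The level of Letm1 was 133 CPM in DKO241 and 70.4 to 84.7 CPM in the other lines, with a median of 79.2 CPM, so the deviation was 0.74. Anapc5, a subunit of the anaphase promoting complex, was at 885 CPM against 595 to 725 CPM, with a deviation of 0.41. Both were outside the range of the other lines. Pitpnb, a phosphatidylinositol transfer protein, was at 263 CPM against 153 to 201 CPM, with a deviation of 0.57. Nup54, a nuclear pore protein, had 92.7 CPM against 62.9 to 82.6 CPM. Rnf4, a ubiquitin ligase for SUMO-marked proteins, moved least of the 5, with 258 CPM against 192.4 to 250 CPM and a deviation of 0.23.

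On chromosome 11 the 5 steadiest genes were closer to each other, with deviations of 0.39 to 0.52. Ggnbp2 was at 173 CPM in DKO241 and 116 to 136 CPM in the other lines. Mis12, a kinetochore component, was at 93.5 CPM against 59.0 to 71.2 CPM, and Csnk1d, a casein kinase, at 261 CPM against 166 to 213 CPM. Sap30bp had 84.4 CPM against 54.7 to 67.8 CPM, and Ube2g1, a ubiquitin-conjugating enzyme, 144 CPM against 88.7 to 111 CPM. All 10 of the steadiest genes were highest in DKO241. In the annotation used, exons of Mis12, Sap30bp, Csnk1d and Pitpnb overlap a gene on the opposite strand, and whether the counting used strand is not stated in the sources used here.

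Few steady genes stayed at their usual level. The rule for naming them took the 5 lowest of each chromosome among the steady genes at or below their median, of which there were 12 on each. Zcchc4, which encodes a methyltransferase of ribosomal RNA and lies on chromosome 5 from 53166648 to 53215904, stood furthest away. It had 13.2 CPM (249 reads) in DKO241 and 23.3 to 44.2 CPM in the other lines, with a median of 31.1 CPM. Its deviation of -1.11 put DKO241 below every other line by 0.77, while the 5 members on each side of it had a median of 0.50. It was the only one of the 10 genes named here with a deviation past -0.36.

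The next was Zkscan14, a zinc finger gene, with 5.89 CPM in DKO241 and 6.03 to 13.3 CPM in the other lines. Hnrnpd, which encodes an RNA-binding protein that regulates the decay of AU-rich messages, was at 381 CPM against 352 to 655 CPM with a median of 485 CPM. It is the most abundant of these genes, and its deviation was -0.34. Rab28, a small GTPase, had 27.1 CPM against 21.6 to 45.1 CPM, and Alkbh4, a dioxygenase of the AlkB family, 10.2 CPM against 8.99 to 15.04 CPM. Apart from Zcchc4 and Zkscan14, these genes of DKO241 lay inside the range of the other lines.

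On chromosome 11 the deviations of the 5 genes ran from -0.29 to -0.09, and all lay inside the range of the other lines. Against the median of the 7 other DKO lines Cyfip2 was at -0.51 and 1810032O08Rik at -0.24. Cyfip2, a component of the WAVE complex of actin assembly, was at 144 CPM in DKO241 and 130 to 244 CPM in the other lines. Fbxl20, an F-box protein, had 43.8 CPM against 32.2 to 68.7 CPM. Mnt, a repressor that pairs with MAX, had 45.8 CPM against 35.4 to 67.9 CPM. These are regulators of unlike kinds. Rnf167, a ubiquitin ligase, was at 43.7 CPM against 31.0 to 70.3 CPM, and 1810032O08Rik at 23.8 CPM against 17.6 to 36.1 CPM.

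The genes around each of the 10 carried the shift, since the median of the 5 members on each side was 0.35 to 0.50 on chromosome 5 and 0.31 to 0.53 on chromosome 11. Exons of Rnf167, Hnrnpd, Fbxl20 and 1810032O08Rik overlap other annotated genes, so their counts are uncertain where reads could be shared. None of the 10 was above its median under any of 11 other settings of scale, filter or reference in which it was kept. Since they were picked as lowest and several settings barely change a deviation, this was largely fixed beforehand.

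Members past a 2:1 dose were also rare among steady genes, with 1 in 679. That gene is Srsf2, which encodes a splicing factor of the SR family and lies on chromosome 11 from 116711211 to 116714408. It had 142 CPM in DKO241 and 48.1 to 83.5 CPM in the other lines, with a median of 68.2 CPM, a deviation of 1.04 and an SD of 0.25 over the other lines. The 5 members on each side of Srsf2 had a median of 0.35. Its exons overlap Mettl23 and Mfsd11 on the opposite strand.

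Over all members, 14 genes of chromosome 5 and 23 of chromosome 11 were both highest in DKO241 and at 2:1 or more, which is 2.27% and 2.73% of the members. Of all genes at 5 CPM or more 85 (0.876%) met both conditions, and of those of the other autosomes 0.58%. The minimum of 5 CPM is a mean over all lines, and 7 members reached it only through DKO241, their mean over the 14 other lines being lower. In DKO241 these had to lie above that mean, and without them 13 and 20 genes met both conditions. On chromosome 5 the 5 with the largest gap to the next line were Gbp9, ENSMUSG00000090739, Gbp4, Lrrc8c and Pitpnm2. Gbp9 and Gbp4 encode guanylate-binding proteins, interferon-inducible GTPases of host defense. Gbp9, on chromosome 5 from 105507413 to 105539311, was at 53.1 CPM in DKO241 and 1.10 to 16.3 CPM in the other lines, with a median of 7.30 CPM and a deviation of 2.46. Gbp4 was at 49.8 CPM against 2.43 to 28.4 CPM, with a deviation of 1.89. Exons of Gbp4, Gbp8 and Gbp9 overlap in the annotation and the genes are close relatives, so how reads were divided among them is uncertain.

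Most members near Gbp9 stood high as well. Among the members that start between 104937371 and 105948407 on chromosome 5, BC005561 had a deviation of 1.479, ENSMUSG00000090739 of 1.40, Abcg3 of 2.09, Lrrc8b of 0.84 and Lrrc8c of 1.12. Lrrc8c encodes a subunit of the volume-regulated anion channel and had 60.4 CPM in DKO241 against 17.5 to 35.5 CPM in the other lines. Lrrc8d, its neighbor, was back at 0.08, with 47.6 CPM against 24.4 to 76.7 CPM. Of the genes in this stretch that are under 5 CPM, Zfp951 had a deviation of -0.16. The others were raised, with 2.28 for Gbp8, 1.16 for Gbp11, 1.07 for ENSMUSG00000054588 and 0.93 for Gm43302. Abcg3, Gbp9 and Gbp4 varied widely among the other lines, with SDs of 0.88 to 1.22. Gbp genes on chromosome 3, outside the shifted chromosomes, were also above their medians in DKO241, with deviations of 1.63 for Gbp3, 1.65 for Gbp2, 1.41 for Gbp7 and 1.25 for Gbp2b, but of these only Gbp3 was highest in DKO241. Abcg3, with a mean of 4.52 CPM over the other lines, is 1 of the 7 members that reached the minimum only through DKO241. This stretch was picked after its values were seen.

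Pitpnm2, a phosphatidylinositol transfer protein gene of chromosome 5, was the most abundant of this group, at 657 CPM in DKO241 and 97.4 to 404 CPM in the other lines. On chromosome 11, Tbc1d16, a GTPase-activating protein for Rab proteins, was at 40.0 CPM against 0.14 to 10.4 CPM, with a deviation of 2.56 and a gap of 1.85 to the next line. Its mean over the other lines was 4.40 CPM, so it too reached the minimum only through DKO241. Nsg2, a vesicle protein best known from neurons, was at 191 CPM against 11.1 to 88.1 CPM. Both stood clear of all other lines. Lgalsl, a galectin-like gene, was at 39.5 CPM against 0 to 21.4 CPM, and Atp1b2, a subunit of the sodium pump, at 38.3 CPM against 2.80 to 22.6 CPM. The neighbors of these 4 genes of chromosome 11 had medians of 0.47 to 0.62, so each stood above a stretch that was itself raised. The SDs of the 4 genes over the other lines, 0.73 to 1.75, were far above the limit for steady genes.

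**Figure D4:**
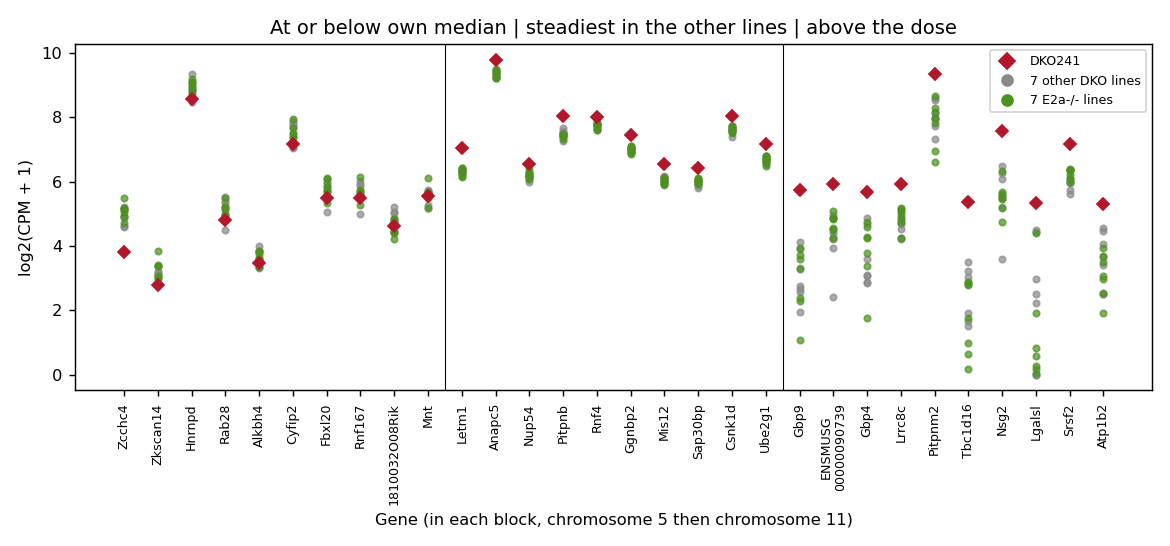
Level in log2(CPM + 1) of 30 named genes in each line, red for DKO241, gray for the other DKO lines and green for the E2a-/- lines, in 3 blocks: steady genes at or below their own median, the steadiest genes, and genes at 2:1 or more. Zcchc4 and Zkscan14 lie below all other lines, the other 8 genes of the first block inside their range, and the genes of the middle and right blocks above it.

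Lists of genes by role were described next, with all members of each list that reach 5 CPM on either chromosome. Of all 1458 members 11.7% were at or below their median in DKO241, 27.5% were above a 3:2 dose and 47.2% were highest in DKO241. The counts of each list stand beside these shares, and a count near them is no trait of the role. Among 12 transcription factors of T cell development and signaling, 8 were above their median in DKO241, 4 were above a 3:2 dose and the median was 0.29. In the other lines the median of this list lay between -0.35 and 0.21. Tcf7, which encodes TCF1, the relative of LEF1 in T cells, was highest in DKO241 at 3624 CPM, with 800 to 3228 CPM in the other lines. Rbpj, the DNA-binding partner of Notch, was the steadiest of them and was at 161 CPM against 82.1 to 118 CPM, a deviation of 0.65. Ikzf1, encoding Ikaros, was at 1257 CPM against 0.13 to 847 CPM, and its relative Ikzf3 at 492 CPM against 3.41 to 418 CPM. The range of Ikzf1 was very wide, with an SD of 3.27. Stat5a, a factor downstream of cytokine receptors, had 104 CPM against 68.2 to 161 CPM and a deviation of -0.22, while its neighbor in function Stat5b had 0.19.

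T cell signaling genes were widely spread, with a robust SD of 0.45, beside 0.48 for the transcription factors. Of 22 members 14 were above their median in DKO241, 6 above a 3:2 dose and 2 highest in DKO241, and the median of 0.30 was inside the range of -0.33 to 0.61 of the other lines. Ptpn11, the SHP2 phosphatase, was at 251 CPM against 92.2 to 228 CPM. Gna13, a G protein subunit, was at 254 CPM against 109 to 219 CPM. These were the genes highest in DKO241. Lcp2, which encodes the adaptor SLP-76, had 196 CPM against 62.9 to 204 CPM and a deviation of 0.67. The lowest deviations were in Socs3, an inhibitor of cytokine signaling, at 3.82 CPM against 2.49 to 69.6 CPM, and Ccr7, a chemokine receptor, at 0.32 CPM against 0.05 to 87.4 CPM.

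Of 20 tumor suppressor and growth genes, 19 were above their median, 13 were highest in DKO241 and the median was 0.41, against -0.62 to 0.15 in the other lines. Suz12, a subunit of the Polycomb complex that methylates histone H3, was at 575 CPM against 211 to 481 CPM. Nf2 was at 214 CPM against 80.5 to 168 CPM, and Brca1 at 175 CPM against 64.8 to 162 CPM. Trp53 and Nf1 were at the other end. Trp53, encoding p53, had 333 CPM against 160 to 440 CPM and a deviation of 0.09. Nf1, an inhibitor of Ras, had 96.6 CPM against 35.6 to 122 CPM and was itself the median line, with a deviation of 0.00. Axin2, an inhibitor and target of Wnt signaling, had 147 CPM against 76.9 to 259 CPM in the other DKO lines. In the E2a-/- lines it had 19.9 to 87.2 CPM, and its deviation of 0.74 is taken from the median over both genotypes.

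Replication and mitosis genes had the smallest robust SD of the role lists, 0.09, but not the narrowest range. Their deviations ran from -0.02 to 0.86, those of ribosomal proteins from 0.10 to 0.51, and differences between lists were not tested. Of 30 members 29 were above their median and 23 highest in DKO241, with a median of 0.46. In the other lines the median of this list lay between -0.10 and 0.09. By the SD limit of 0.3, 23 of the 30 were steady genes. Of all 679 steady members 73.0% were highest in DKO241 and 3.53% were at or below their median, beside 47.2% and 11.7% of all members. Rfc5, a subunit of the clamp loader, was at 177 CPM against 104 to 145 CPM, and Pold2, a subunit of DNA polymerase delta, at 153 CPM against 74.5 to 118 CPM. Cdc6, which loads the replicative helicase, was at 252 CPM against 138 to 206 CPM. Rpa1, the large subunit of the protein that coats single-stranded DNA, was at 525 CPM against 352 to 481 CPM. The lowest deviations of this list were -0.02 in Anapc11, 0.08 in Cenpa and 0.11 in Ncapg.

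Of 19 chromatin genes 18 were above their median and 12 highest in DKO241, with a median of 0.40 against -0.30 to 0.06 in the other lines. Bcl7a, a subunit of SWI/SNF remodelers, was at 332 CPM against 75.8 to 223 CPM, a deviation of 1.06. Cbx1, a heterochromatin protein, was at 353 CPM against 197 to 279 CPM, and Kmt5a, a histone H4 methyltransferase, at 333 CPM against 195 to 268 CPM. Hdac5 had 42.3 CPM against 9.48 to 81.3 CPM and a deviation of 0.00. The 9 interferon-inducible members had a median of 0.60, inside the range of -1.44 to 0.88 of the other lines, and 3 were at 2:1 or more, Gbp9, Gbp4 and Slfn9. Slfn9 was at 243 CPM against 7.01 to 213 CPM.

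Housekeeping complexes whose genes are scattered over the genome allowed a description of the shift within a role. Each difference below uses the deviations on which the chromosomes were chosen. Its height in DKO241 against the other lines was therefore fixed beforehand and carries no further evidence for the shift. The 13 members with symbols of ribosomal proteins were all above their median, but the list's median was only 0.31, and the 71 genes of the list on the other autosomes had a median of -0.25 in DKO241. The difference of the medians was 0.56. In the other lines this difference ran from -0.16 to 0.09, below the value of DKO241. The median of the members alone was not highest in DKO241, since it ran from -0.45 to 0.87 in the other lines, with the highest in DKO170.2. Taken against the median of the 7 other DKO lines, the members' median in DKO241 was 0.17. A member such as Rplp0, of the ribosomal stalk, had 1903 CPM against 1481 to 2383 CPM and so lay within the range of the other lines. The list was made from symbols and includes Rps6kb1, a kinase.

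For the proteasome the same difference was 0.53, from 13 members with a median of 0.53, against -0.23 to 0.31 in the other lines, and 34 other genes at 0.00. Psmd12, a lid subunit, was at 234 CPM against 130 to 188 CPM, and Psme3, an activator subunit, at 441 CPM against 230 to 341 CPM. The list also took in Psmc3ip, a recombination factor, at 56.4 CPM against 15.9 to 37.2 CPM. For translation initiation the difference was 0.52, from 10 members, one of which is the kinase gene Eif2ak1, and 40 other genes. The median of these members was 0.50 in DKO241 and -0.17 to 0.27 in the other lines. Eif3b, a subunit of the eIF3 complex, was at 744 CPM against 420 to 629 CPM. For mitochondrial respiration and ribosome genes it was 0.49, from 26 members and 141 other genes. Mrps23, a protein of the mitochondrial ribosome, was at 94.5 CPM against 40.4 to 67.5 CPM, and Cox10, which makes heme A for cytochrome oxidase, at 74.6 CPM against 35.6 to 54.5 CPM. All 26 were above their median but only 9 were highest in DKO241, and Atp5h, a subunit of ATP synthase, had 313 CPM against 162.9 to 546 CPM. The median of these members was 0.49 in DKO241 and -0.37 to 0.80 in the other lines, with the highest in DKO170.2. In the other lines these 3 differences lay between -0.20 and 0.22. Ribosomal protein genes have many processed pseudogenes, and how reads shared with them were counted is not stated in the sources used here.

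**Figure D5:**
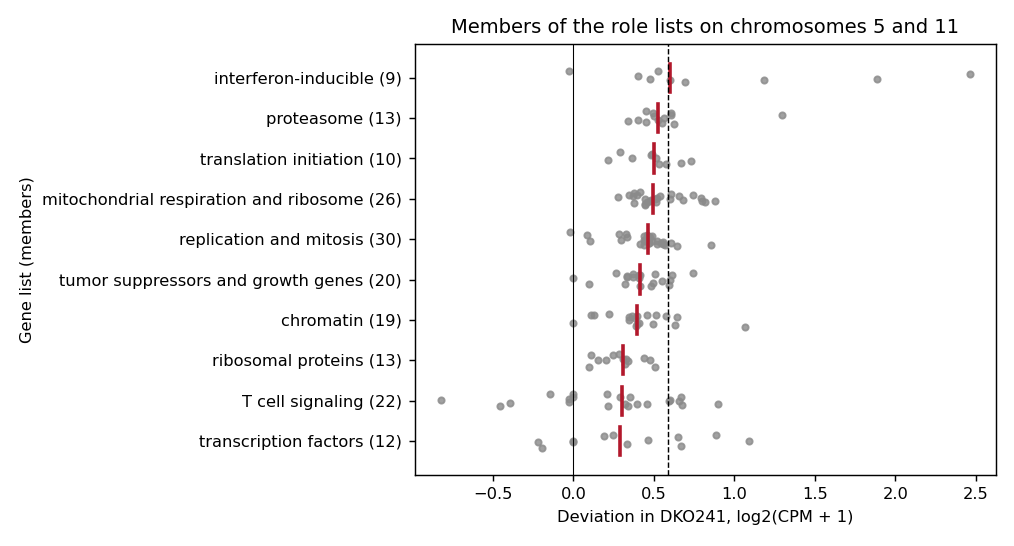
Deviation in DKO241, in log2(CPM + 1) units, of the members of each role list; points are genes, red bars list medians, the solid line is the own median and the dashed line a 3:2 dose. Replication and mitosis genes lie close to their median of 0.46, while T cell signaling genes and transcription factors are spread from -0.82 to 1.09.

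Finally, the members were placed in the comparison of genotypes that the study was designed for. With limma on log2(CPM + 1), 6 of 12545 genes (0.0478%) had an adjusted p under 0.01 between the 8 DKO and the 7 E2a-/- lines, and 0 of them were members. Fam183b, among the 6 and noted after its value was seen, lies on chromosome 11 but is under the minimum of 5 CPM, with a log2 difference of 2.33 and an adjusted p of 0.0055 in limma. At an unadjusted p under 0.05 in limma there were 167 of 1458 members, which is 11.5%, beside 10.2% of all genes, and without DKO241 there were 149 members among 1185 of the 12545 genes. At an adjusted p under 0.05 in limma there were 3 members among 19 genes (0.151%), Tbx21, Pdgfa and Evi2a, all higher in DKO lines. DESeq2 on the recovered reads called 14 members among 177 genes (1.41%) at an adjusted p under 0.01, and the quasi-likelihood test of edgeR called 0 members among 1 gene.

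Tbx21, which encodes the transcription factor T-bet, was at 11.2 CPM in DKO241, at 7.71 to 11.6 CPM over the DKO lines and at 0 to 7.94 CPM over the E2a-/- lines, where the highest was the library labelled SKO132. It had a log2 difference of 2.30 (adjusted p = 0.0208 from limma, standard error 0.37), with 6 of 8 DKO lines above every E2a-/- line. Pdgfa, a growth factor chain, was at 70.9 CPM in DKO241, 0 to 214 CPM over the DKO lines and 0 to 1.61 CPM over the E2a-/- lines, with a log2 difference of 5.18 (standard error 0.85, adjusted p = 0.0208 from limma). It was higher than in every E2a-/- line in 7 of 8 DKO lines. Evi2a was at 8.12 CPM in DKO241, the lowest of the DKO lines, and had a log2 difference of 1.504 (standard error 0.26, adjusted p = 0.0260 from limma). It was higher than in every E2a-/- line in 7 of 8 DKO lines, DKO241 being the exception. Without DKO241, limma called 4 genes and 0 members at an adjusted p under 0.01. At the same threshold it called 17 genes without SKO132, Tbx21 being the only member. Without DKO79.9 it called 10 genes, with 6330403L08Rik and Pdgfa as members.

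DKO241 is 1 of 8 DKO lines, and its shift moved the group difference of the members a little. The median log2 difference of the members, DKO minus E2a-/-, was 0.05 with DKO241 and -0.01 without it, beside -0.02 and -0.03 over all genes, in limma. On the recovered reads, with DKO241, it was 0.10 with edgeR and 0.09 with DESeq2, beside 0.01 and 0.00 over all genes. By chromosome, the limma median went from 0.03 with DKO241 to -0.03 without it on chromosome 5, and from 0.08 to 0.02 on chromosome 11.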

How the data were processed

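RNA from 15 leukemia lines, 8 DKO and 7 E2a-/-, was sequenced, 1 library per line. Per the submitters' notes and methods, reads were trimmed with Trimmomatic (0.33), aligned to mm10 with TopHat2 (2.1.0), counted with HTSeq (0.6.1) and scaled with edgeR, and the authors deposited CPM values for 12545 genes, 12172 of them matched to a symbol in GENCODE M21. The starts of 190 of those 12172 genes lie within 1 bp of their GRCm38 position, so positions are given as deposited and no sequence was read by them. Reads were recovered by taking the smallest CPM value of a library above 0 as 1 read, which made 100% of values whole within 0.01 reads. Reads per line were 4847970 (DKO79.9) to 21681586 (SKO95), so 1 read is 0.206 to 0.0461 CPM. No pair of lines agreed within sampling noise (lowest chi-square per gene 45.01).

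Deviations are differences of log2(CPM + 1) from the gene's own median in the 15 lines, with a pseudocount of 1 and a minimum mean of 5 CPM. Named genes are, per chromosome, the 5 lowest at or below their median with an SD of at most 0.3 over the 14 other lines, the 5 with the largest gap to the next line among those at 2:1 or more and highest in DKO241, the 5 steadiest with a mean of at least 50 CPM, and members of role lists. The members, rules and lists were chosen with earlier results of these data known. The groups were compared with limma (3.58.1, R 4.3.3, trended variance, two-sided, Benjamini-Hochberg over all genes), since the values are CPM, and with edgeR (4.0.16) and DESeq2 (1.42.0) on the recovered reads. Nothing says more of the lines than that each is a separate leukemia, so p-values measure the spread between lines. Medians and shares were computed in Python (3.11.15, pandas 2.3.3). The limma fit and the shift were tested on simulated data. Alternatives were other pseudocounts, minimum means, references, scalings, bin sizes and lines left out. SD limits of 0.2 and 0.5, windows, runs, flanking genes, a minimum mean over the lines other than DKO241 and reads per 100 reads on other autosomes were added after seeing the data. Results for some genes examined are not reported here.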

Additional observations from a re-analysis of the deposited data

Results flagged for a closer look

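Within each genotype, lines were compared with each other for 24 quantities, and a line was singled out when its gap to the nearest other line was large against the whole range of its group, by Dixon's criterion at 95%. Of 48 groups 8 were singled out. Chance alone singles out about 1 in 20, but the chromosomes and many of the genes were chosen for extreme values in DKO241, so the number singled out was not compared with it. DKO241 was far from the other DKO lines in its median deviation on chromosome 5 (0.41, others -0.10 to 0.00) and chromosome 11 (0.47, others -0.06 to 0.10), and in its share of reads on chromosome 5 (7.85%, others 5.63% to 6.10%) and chromosome 11 (13.11%, others 9.52% to 10.5%). These are the values on which the chromosomes were chosen, so being singled out was fixed beforehand and is no evidence for the shift. Among genes, which were named for their place in DKO241, DKO241 was far below the other DKO lines in Zcchc4, at 13.2 CPM where they had 23.3 to 35.9 CPM, and far above them in Lrrc8c, at 60.4 CPM where they had 17.5 to 29.6 CPM. For Zcchc4 and Lrrc8c too the criterion carries no evidence, since they were named for such values. In the library labelled SKO132 chromosome 5 took 5.85% of reads, below the 5.98% to 6.08% of the other E2a-/- lines, and Lgalsl was at 20.4 CPM, above their 0.05 to 2.74 CPM.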

How the results depend on the processing

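The chromosome shifts kept their direction and size in all 11 gene-level settings tried, at 0.39 to 0.44 on chromosome 5 and 0.45 to 0.49 on chromosome 11, also without SKO132 and DKO79.9 in the reference (0.41 and 0.47), and the 323 values of named genes and 110 medians of role lists moved by less than the spread of the other lines. With a minimum mean of 1 CPM, 276 members were at or below their median and 98 at 2:1 or more, and with 20 CPM 98 and 31, among 1729 and 1167 members; with a mean of 5 CPM over the lines other than DKO241, 54 were at 2:1 or more. The highest bin of chromosome 5 was 0.71 with 5 Mb bins, and with 20 Mb bins the lowest and highest of chromosome 11 were 0.44 and 0.50. Without the 10 genes with the most reads of each chromosome, chromosome 5 took 6.81% and chromosome 11 11.1% of reads in DKO241, and the ratio for chromosome 5 was 1.34. Calls between genotypes by limma at an adjusted p under 0.01 were 6 genes and 0 members, and became 19 and 3 at 0.05, 17 and 1 (Tbx21) without SKO132, 10 and 2 (6330403L08Rik and Pdgfa) without DKO79.9, and, on recovered reads, 1 and 0 with edgeR and 177 and 14 with DESeq2; the cause was not tested. The median log2 difference of the members turned from 0.05 to -0.0062 without DKO241. No paired analysis was possible because no line number occurs in both genotypes. In DKO79.9, the shallowest line, 3 reads are 0.618 CPM, and a member at or under that level there, such as Pdgfa at 0 CPM, is not resolved.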

Other observations

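Some of the members far from their medians in DKO241 also vary widely among the other lines, and those given here were picked because of their values. Plac8 on chromosome 5 was the lowest, with 1.91 CPM where its mean over all lines is 201 CPM, a deviation of -5.82 and an SD of 2.29 over the other lines. On chromosome 11, Ace, which encodes angiotensin-converting enzyme, was at 0 CPM with a mean of 18.8 CPM and a deviation of -3.23, and Itgb3, an integrin chain, was at 1.33 CPM with a mean of 20.8 CPM. At the other end, Gm525 on chromosome 11 was at 147 CPM with a mean of 23.2 CPM and a deviation of 7.14, but another line was higher by 0.45. Next was Pdgfa on chromosome 5, with a deviation of 4.78, an SD of 3.19 over the other lines and another line higher by 1.58. Ngfr, a neurotrophin receptor, was at 26.8 CPM with a mean of 10.6 CPM and a deviation of 2.96, and was likewise not highest in DKO241.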
